A study of Mus musculus with 12 samples.

Results

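The genes described here encode the subunits of Mediator and of its kinase module, measured in mouse embryonic stem cells. They were taken by name: every gene whose RefSeq symbol is Med followed by a number, with or without a final l, together with Cdk8, Cdk19 and Ccnc. This rule gave 33 genes, of which 32 had a probe on the array and 31 could be tested among 26840 genes in all. No probe was matched to Med6. Med12l was on the array but was not tested, because its 3 probes were well above background on 0, 0 and 4 of the 12 arrays and in no group on every array.

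Mediator carries signals from transcription factors bound at enhancers and promoters to RNA polymerase II. Its head and middle modules contact the polymerase, its tail is bound by many activators, and Med14 runs through the complex as the scaffold that holds these parts together. A separable kinase module, made of cyclin C, Cdk8 or Cdk19, Med12 or Med12l and Med13 or Med13l, can dock onto the core and keep the polymerase out, and its kinases phosphorylate transcription factors. In embryonic stem cells, Mediator is known for its high occupancy at the enhancers of pluripotency genes and for working there with cohesin.

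Total RNA was measured on 12 one-colour arrays, in 4 groups of 3 biological replicates. All cells were mouse embryonic stem cells kept with LIF and 250 nM PD173074, an inhibitor of the fibroblast growth factor receptors that feed the kinase ERK. One group was untreated and titled 0 h. The second received 250 nM 4OHT for 6 h, the third 1 µM MG132 for 30 min and then a further 6 h, and the fourth the same MG132 course with 250 nM 4OHT during the 6 h. MG132 blocks the proteasome, and 4OHT is an oestrogen receptor ligand that often serves to activate fusion proteins carrying a mutated hormone-binding domain. Neither such a fusion, nor a clone, nor a vehicle is named in the labels used here. No untreated array was titled 6 h, so time and compound cannot be told apart where untreated cells are the control.

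Between 49.5% and 63.2% of probes were well above background on an array. Array-to-array correlation within a group ran from 0.977 to 0.996 and was lowest with 4OHT, where Mediator genes deviated from their group means with an SD of 0.20, against 0.11 to 0.13 in the other groups. Slide 1 held 8 arrays (untreated, 4OHT, and MG132 replicates 1 and 2) and slide 2 held 4 (MG132 replicate 3 and all arrays with both compounds). As a check of the cell type, 10 of 10 embryonic stem cell markers were well above background on every array. Of 9 fibroblast and feeder markers, 2 were (Col1a2 and Thy1). Col1a1 and Pdgfrb were well above background on 11 of the 12 arrays, Dcn on 7, Postn on 3, Col3a1 on 1, and Twist2 and Lum on none. Primitive endoderm markers were well above background on every array for 7 of 8 genes, and their summed level had overlapping ranges in the 4 groups.

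Levels below are log2 intensities relative to the 75th percentile of the same array, so that 0 is the level of that percentile. Differences are log2 fold changes ± standard error with n = 3 arrays per group, and a gene was called when its limma p, adjusted over all 26840 genes, was below 0.05. Every gene rests on 1 probe, and levels of different genes were not compared. Comparisons that share a group are not independent of each other. Both compounds given alone were set against the same untreated arrays, and the arrays with both compounds were set against MG132 alone and against 4OHT alone.

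With 4OHT alone, cyclin C and the scaffold Med14 rose most, and the middle subunit Med9 and the kinase Cdk19 fell most. Of the 31 Mediator genes, 8 were called: Ccnc, Med14, Med22 and Cdk8 were higher (12.9%, beside 13.9% of all genes tested), and Med9, Cdk19, Med21 and Med19 were lower (12.9%, beside 14.7%). No change passed 2-fold, and the median over the 31 genes was 0.03, beside 0.03 over all genes. Centring arrays on their median instead put the median of all genes at -0.14, and the calls then split into 2 higher and 6 lower, beside 2390 higher and 5353 lower among all 26840 genes. With quantile normalization the split was 2 and 7. Ccnc, Cdk19, Med14 and Med9 were called under all 27 settings tried. The calls of the other 4 were lost when single arrays were left out: without untreated replicate 1 or without untreated replicate 2, only 4 Mediator genes were called. Of the 5 tested of 9 fibroblast and feeder markers, 1 was higher with 4OHT (Thy1, 3.71 ± 0.19, adjusted p = 9.6e-07) and 1 lower (Pdgfrb, -1.57 ± 0.51, adjusted p = 0.041), with a median of -0.37. Twist2 and Lum were well above background on no array, Col1a1 and Pdgfrb on 11, and Col1a2 and Thy1 on all 12. Their summed level, 0.69 to 1.11 on untreated and 4.08 to 4.74 on 4OHT arrays, was carried by Thy1. Of 10 embryonic stem cell markers, 1 was higher and 3 were lower. The part of these markers in the Mediator results was not tested.

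MG132 alone gave calls in every module of Mediator. Med22 (1.10 ± 0.14, adjusted p = 0.00018) and Med10 rose most, while Med9, Med18 and Med17 fell most. There were 20 calls among the 31 genes, 8 higher (25.8%, beside 24.1% of all genes) and 12 lower (38.7%, beside 19% of all genes). Only Med22 passed 2-fold, and the median over Mediator genes was 0.04, beside 0.07 over all genes. The direction of this comparison leaned on the scaling: with median centring the median of all genes went to -0.27 and the Mediator calls split into 2 higher and 16 lower, with Cdk8 and Med23 among the lower. All genes tilted the same way there, with 3606 higher and 9453 lower of 26840. Calls of 8 genes (Ccnc, Med10, Med14, Med17, Med18, Med22, Med25 and Med9) held under all 27 settings, 10 were lost when at least 1 single array was left out, and 13 calls were made without untreated replicate 2 and 13 without untreated replicate 3. Embryonic stem cell markers moved with MG132, with 9 of 10 lower and summed levels of 9.06 to 9.10 against 9.82 to 9.86 in untreated cells. Fibroblast and feeder markers had 2 of 5 higher and none lower, with summed levels of 1.87 to 1.94. The part of either list was not tested, and in bulk RNA fewer cells of a type and less RNA per cell cannot be told apart.

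**Figure D1:**
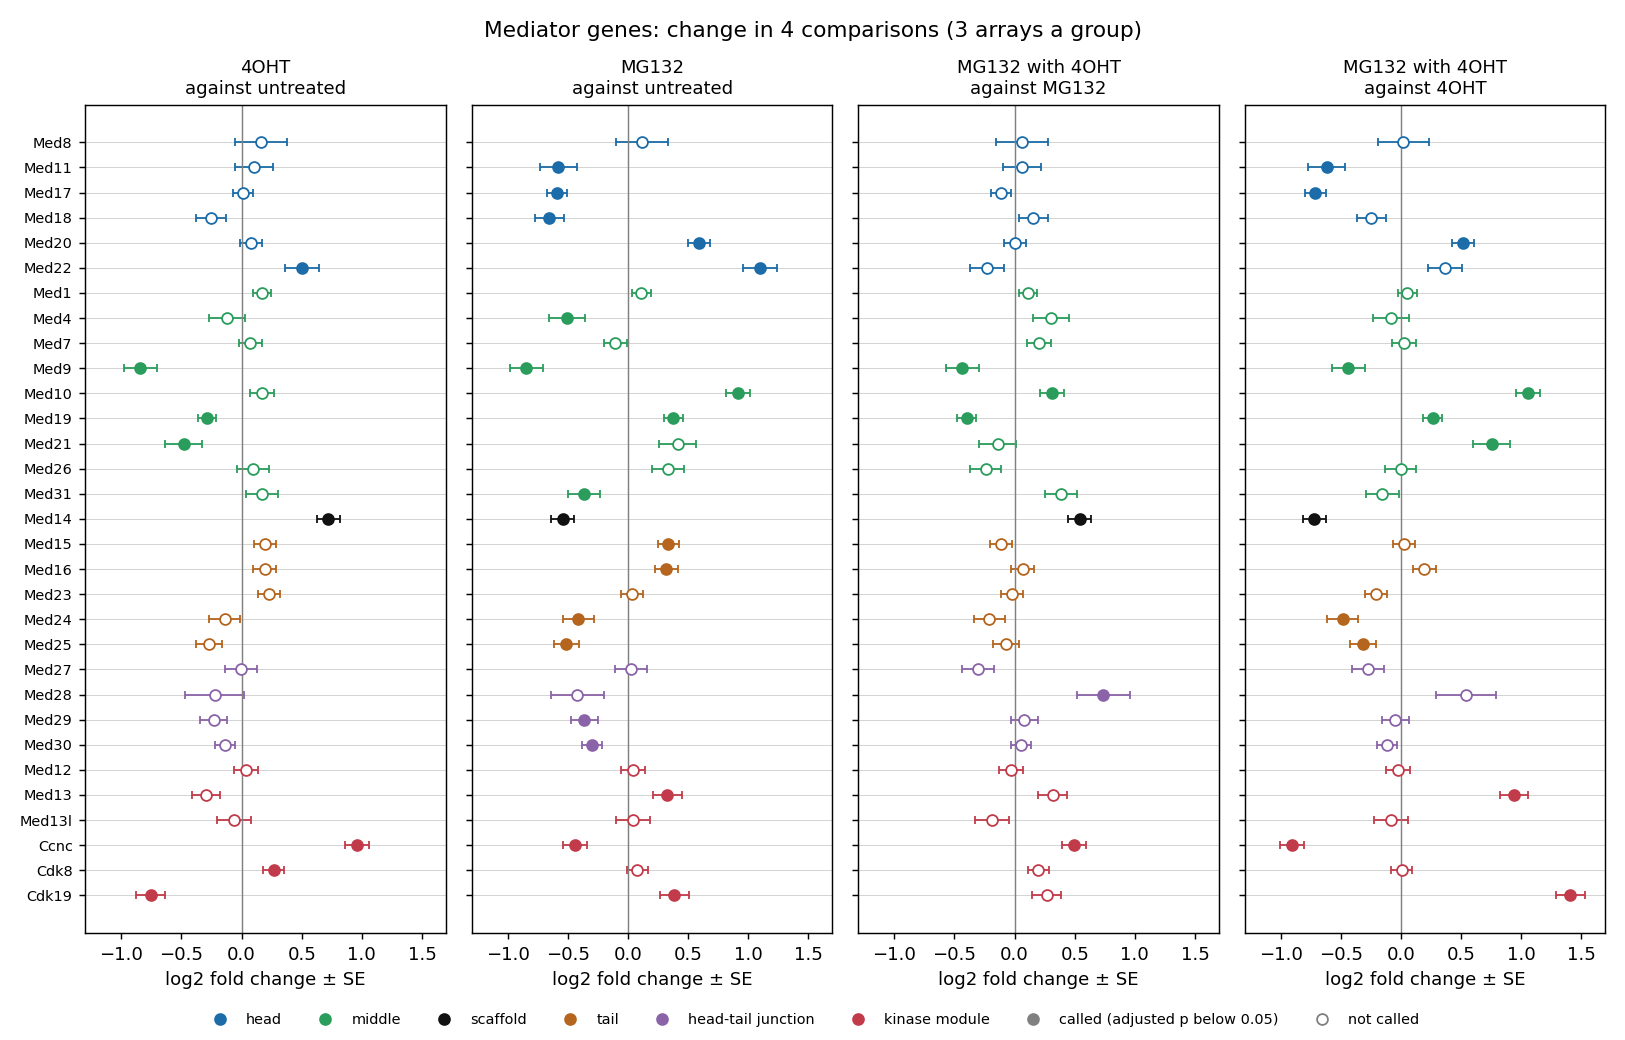
Log2 fold change of each of the 31 Mediator genes (x axis, point, with its standard error as bar; n = 3 arrays per group) in 4 comparisons, with genes in rows coloured by module and filled where the adjusted p was below 0.05. The panels hold 8, 20, 6 and 13 filled points, and Cdk19 with both compounds against 4OHT alone lies farthest right, at 1.41.

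Given on top of MG132, 4OHT changed 6 Mediator genes. Ccnc, Med14, Med28 and Med10 rose and Med19 and Med9 fell, which is 12.9% higher and 6.45% lower, beside 13.9% and 12.6% of all genes. The median was 0.06, beside 0.07 over all genes. The replicate numbers paired the arrays of these 2 groups, with same-number correlations of 0.14 to 0.41, and with the replicate number as a block Med31 was called too (0.38 ± 0.098, adjusted p = 0.020, against 0.059 without the block). Ccnc, Med14 and Med19 were called whichever single array was left out, and only 3 genes were called without untreated replicate 1 or 2, MG132 replicate 1 or 2, or any 1 of the 3 arrays with both compounds. MG132 replicates 1 and 2 lay on another slide. With slide as a block only Med14 was called (0.59 ± 0.14, adjusted p = 0.027). Over all 26840 genes the calls fell from 7109 to 2988 with this block. Slide 2 held 1 MG132 array against 3 with both compounds, so only sizes of change are given within it. The within-slide values were 0.59 for Med14, 0.40 for Ccnc, -0.34 for Med19, 0.68 for Med28, -0.59 for Med9 and 0.18 for Med10.

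Set against 4OHT alone, the arrays with both compounds differed in genes of the kinase module, the scaffold, the middle, the head and the tail. Cdk19, Med10 and Med13 rose most and Ccnc, Med14 and Med17 fell most. There were 13 calls, 6 higher (19.4%, beside 29.4% of all genes) and 7 lower (22.6%, beside 20.9%), with Cdk19 and Med10 past 2-fold. The median over Mediator genes was -0.02, beside 0.13 over all genes, and median centring, which put the latter at -0.11, split the calls into 4 higher and 11 lower, beside 5055 and 8004 among all 26840 genes. Embryonic stem cell markers were lower for 8 of 10 genes and higher for none, with summed levels of 8.997 to 9.18 against 9.74 to 9.82 with 4OHT. Of 5 fibroblast and feeder markers 2 were higher and 1 lower, with sums of 2.07 to 2.46 against 4.08 to 4.74. The part of these markers was not tested. No slide held both groups, and the only array that links them across slides is MG132 replicate 3. With slide as a block the calls fell to 6, namely Cdk19 at 1.51, Med13 at 1.11, Med10 at 0.86, Ccnc at -1.06, Med17 at -0.72 and Med14 at -0.65, and these 6 were called under all 26 settings. Med19, Med25 and Med9 lost their call when single arrays were left out: Med19 without replicate 1 or 3 of both compounds, Med9 without replicate 1 or 2 of these or 4OHT replicate 2 or 3, and Med25 without any 1 array with both or 4OHT replicate 2 or 3.

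The 4OHT response with MG132 was also tested against the 4OHT response without it. Only Cdk19 was called, at 1.02 ± 0.17 (adjusted p = 0.0074), which is 3.23% of Mediator genes in the higher direction, beside 2.94% of all genes. Limma called none lower, beside 3.61%, and 3 were lower at an unadjusted p below 0.05. Med13 (0.61 ± 0.17, adjusted p = 0.06) and Med28 (0.96 ± 0.33, adjusted p = 0.13) had the next highest values, and Med22 (-0.73) and Ccnc (-0.47 ± 0.14, adjusted p = 0.08) the lowest, and none of these 4 passed. Each of them was called under some other settings. With array weights the calls were Cdk19, Med13, Med28, Med22, Ccnc and Med15, beside 6049 of all 26840 genes. With the mean over probes Ccnc was called (-0.49, limma adjusted p = 0.048) and Cdk19 was not. A missed threshold here does not show an equal response.

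The stretches upstream of the start site are shown for 4 genes with different courses on the arrays: Ccnc, which rose with 4OHT and fell with MG132, Med13, which rose with MG132, Med17, which fell with it, and Med12, which was called in no comparison. With MG132 alone Med13 just passed (limma adjusted p = 0.048), a call kept under 11 of 27 settings. The stretches are the 250 bases before the RefSeq start on GRCm38.p6, 5′ to 3′ on the gene's strand, and no other annotated gene overlaps them. Capitals mark exact matches, on either strand, to a GC box, spelt GGGCGG, or to the CCAAT box that is named for its letters. They also mark a core bound by ETS factors, searched as CCGGAAG.
Ccnc (chr4:21727451-21727700, plus strand): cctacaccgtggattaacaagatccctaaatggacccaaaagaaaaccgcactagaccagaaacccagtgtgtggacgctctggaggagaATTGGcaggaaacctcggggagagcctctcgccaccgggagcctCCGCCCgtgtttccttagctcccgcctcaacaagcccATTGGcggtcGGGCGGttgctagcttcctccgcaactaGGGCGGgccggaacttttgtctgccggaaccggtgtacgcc
Med13 (chr11:86357597-86357846, minus strand): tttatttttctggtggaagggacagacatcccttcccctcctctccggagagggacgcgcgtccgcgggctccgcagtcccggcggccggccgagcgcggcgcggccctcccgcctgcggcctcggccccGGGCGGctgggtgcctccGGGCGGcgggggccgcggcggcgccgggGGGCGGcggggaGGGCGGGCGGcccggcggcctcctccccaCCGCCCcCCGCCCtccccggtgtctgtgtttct
Med17 (chr9:15279907-15280156, minus strand): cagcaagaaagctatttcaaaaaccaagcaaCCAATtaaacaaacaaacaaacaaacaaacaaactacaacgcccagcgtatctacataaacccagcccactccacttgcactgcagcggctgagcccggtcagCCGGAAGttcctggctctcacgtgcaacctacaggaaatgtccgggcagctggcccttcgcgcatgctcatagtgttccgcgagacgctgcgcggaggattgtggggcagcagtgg
Med12 (chrX:101273841-101274090, plus strand): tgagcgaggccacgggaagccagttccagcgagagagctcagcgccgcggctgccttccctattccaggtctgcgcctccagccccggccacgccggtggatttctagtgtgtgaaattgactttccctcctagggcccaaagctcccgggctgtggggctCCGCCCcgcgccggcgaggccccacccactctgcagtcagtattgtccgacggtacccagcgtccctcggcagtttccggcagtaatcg
The Ccnc stretch held 3 GC boxes and 2 CCAAT boxes, that of Med13 held 7 GC boxes, 2 of which overlap each other, and that of Med12 held 1. The Med17 stretch held 1 CCAAT box and 1 ETS core, at 116 to 110 bases before the start, and no GC box.

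RefSeq listed 32 promoters for 28 of the Mediator genes. In the 250 bases before the start, GC boxes lay in 20 of these 32 (62.5%, beside 32.7% of 32851 promoters), CCAAT boxes in 12 (37.5%, beside 33.8%) and the ETS core in 6 (18.8%, beside 6.9%). The 6 with an ETS core belong to Med10, Med14, Med15, Med17, Med19 and Med4. With MG132, Med10, Med15 and Med19 were called higher, and Med14, Med17 and Med4 lower. The Med15 and Med19 calls were lost with median centring, and the Med4 call when some single arrays were left out. The part of the ETS core was not tested. TATAAA was found in 3 of 32 (9.4%, beside 12.4%), the AP-1 element TGANTCA in 2 (6.2%, beside 6.7%) and TGATGNAA, the composite element bound by ATF4, in none (beside 3.5%). A match describes the letters only. In the 4 stretches shown, no matches other than the 2 GC boxes of Med13 overlap.

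In the kinase module, the partner cyclin and the 2 kinases took different courses. Cyclin C, encoded by Ccnc, activates both Cdk8 and Cdk19. Ccnc read 1.95, 2.01 and 2.08 in untreated cells, 2.92, 3.07 and 2.93 with 4OHT, 1.65, 1.38 and 1.67 with MG132 and 2.06, 2.02 and 2.12 with both compounds. The 4OHT arrays lay above and the MG132 arrays below all others, and the arrays with both compounds overlapped untreated ones. Ccnc thus rose with 4OHT (0.96 ± 0.098, adjusted p = 6.4e-05, 1.95-fold) and fell with MG132 (-0.44 ± 0.098, adjusted p = 0.0046); on top of MG132, 4OHT raised it (0.50 ± 0.098, adjusted p = 0.0051), and with both compounds it was lower than with 4OHT alone (-0.91 ± 0.098, adjusted p = 4.6e-05). The 3 other Ccnc probes were all called in the same direction in 3 of these comparisons; for MG132 against untreated cells, 2 of them were called lower and the third gave 0.09. The difference between the 4OHT responses missed the threshold on the probe used and was called lower on 2 of the other 3 (-0.58 and -0.51).

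The levels of Cdk19 were -0.30, -0.19 and -0.54 on the untreated arrays, -0.97, -1.15 and -1.17 on the 4OHT arrays, 0.08, 0.07 and -0.03 on the MG132 arrays and 0.16, 0.50 and 0.27 on those with both. Cdk19 encodes the paralogue of Cdk8, either of which can be the kinase of the module. No groups overlapped: levels stood lowest with 4OHT and highest with both compounds. Cdk19 fell with 4OHT (-0.75 ± 0.12, adjusted p = 0.0011) and rose with MG132 (0.38 ± 0.12, adjusted p = 0.027), a call lost without untreated replicate 1 or 3 or MG132 replicate 1 or 2, with median centring and with the mean over probes. The 4OHT response on top of MG132 was not called (0.27 ± 0.12, adjusted p = 0.13), and against 4OHT alone the arrays with both compounds were 2.65-fold higher (1.41 ± 0.12, adjusted p = 1.1e-05). The probes of Cdk19 did not follow one course. The other 2, designed on a different RefSeq transcript, gave -0.60 (called) and -0.33 (not called) with 4OHT, and on top of MG132 they gave -0.63 (called lower) and 0.56 (not called). With MG132 they gave 0.33 and 0.05, neither called, and with both compounds against 4OHT alone 0.30 (not called) and 0.94 (called). The difference between the 4OHT responses was -0.04 and 0.89 on them, neither called, and the mean over the 3 probes gave 0.63 with adjusted p = 0.085.

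On the 3 arrays of each group Cdk8 stood at 2.77, 2.77 and 2.84 (untreated), 3.18, 2.94 and 3.06 (4OHT), 2.88, 2.92 and 2.81 (MG132) and 2.99, 3.07 and 3.13 (both compounds). Cdk8 rose slightly with 4OHT (0.27 ± 0.087, adjusted p = 0.044), with the groups apart. This call was lost under 18 of 27 settings, among them without any 1 of the 3 untreated arrays, without 4OHT replicate 1 and without 4OHT replicate 3, with a highest adjusted p of 0.47. With MG132 its change was 0.08 ± 0.087, adjusted p = 0.53, and median centring turned it to -0.26 (adjusted p = 0.046). Its other probe gave 0.85 with 4OHT and was not called. Cdk8 and Cdk19 are near copies, and cross-hybridisation between them was not checked.

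Of the large subunits of the kinase module, Med13 links the module to core Mediator and Med12 activates the kinase with cyclin C. For Med13 the arrays gave -1.33, -1.43 and -1.74 without treatment, -1.87, -1.81 and -1.71 after 4OHT, -1.10, -1.13 and -1.29 after MG132 and -0.83, -0.77 and -0.98 after both. Levels with both compounds were the highest, and the untreated and 4OHT arrays overlapped. Med13 rose with both compounds against 4OHT alone (0.94 ± 0.12, adjusted p = 0.00013, 1.92-fold). With MG132 alone it just passed (0.33 ± 0.12, adjusted p = 0.048), a call lost under 16 of 27 settings, among them without untreated replicate 2 or 3 and without MG132 replicate 1 or 2, with values from -0.01 to 0.41. Its paralogue Med13l was called in no comparison. Med13l read 3.09, 3.05 and 3.20 in untreated cells, 2.72, 3.13 and 3.30 with 4OHT, 3.16, 3.02 and 3.29 with MG132 and 2.97, 2.90 and 3.03 with both compounds. The arrays with both compounds lay below the untreated ones, every other pair of groups overlapped, and the changes in the 4 comparisons ran from -0.19 to 0.04. Cross-hybridisation between Med13 and Med13l was not checked.

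The levels of Med12 were 0.97, 0.93 and 0.94 on the untreated arrays, 0.92, 0.96 and 1.06 on the 4OHT arrays, 1.08, 1.09 and 0.78 on the MG132 arrays and 0.90, 1.04 and 0.93 on those with both. Med12 showed the narrowest spread of group means among the 31 genes, at 0.04, and its 4 groups overlapped. With 4OHT its change was 0.03, with a 95% interval from -0.19 to 0.26, and its other probe gave 0.03. For Med12l, the probe above background on 4 arrays was so on 2 untreated arrays, 1 with 4OHT, none with MG132 and 1 with both.

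**Figure D2:**
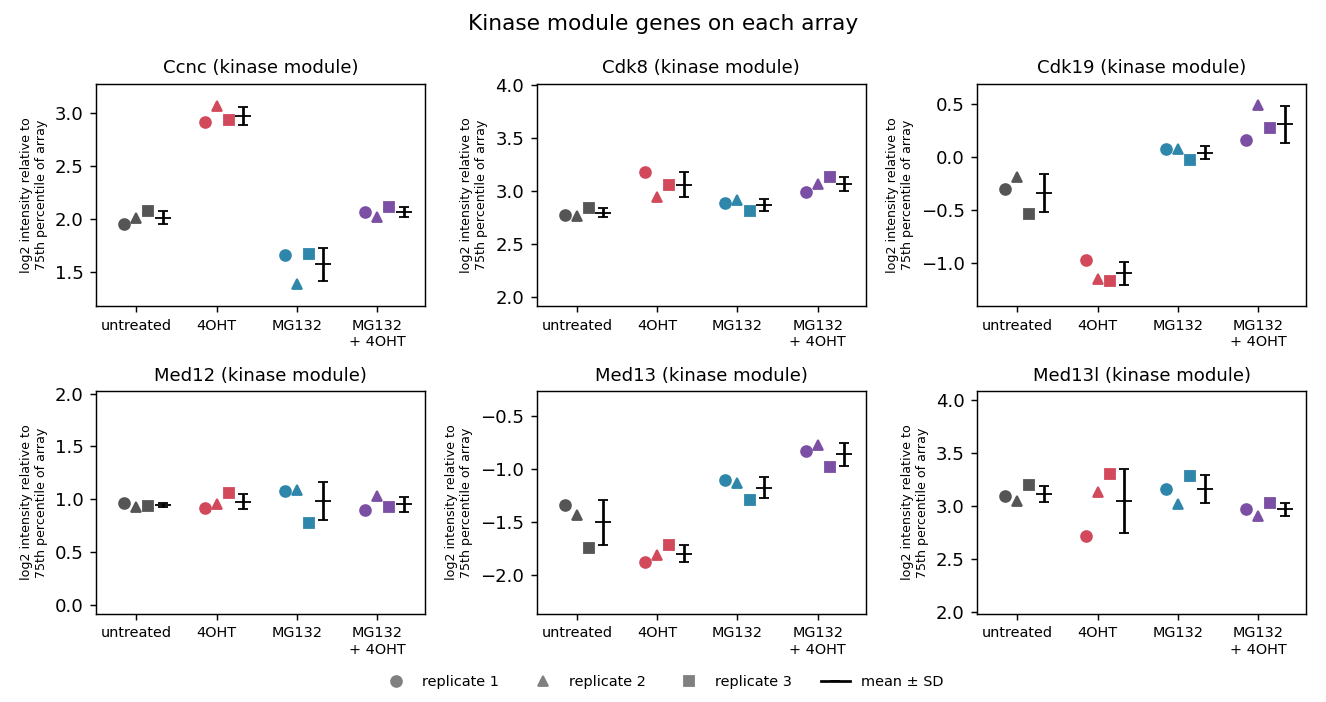
Log2 intensity relative to the 75th percentile of the array (y axis) for the 6 tested genes of the kinase module on each array, by group (x axis), with 1 symbol per replicate number and a bar for the mean ± SD of 3 arrays. The y axes cover different levels. Ccnc lies highest with 4OHT, Cdk19 lowest with 4OHT, and Med12 at about the same level in every group.

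The scaffold gene Med14 took the same course of calls as Ccnc. On the 3 arrays of each group Med14 stood at 0.11, 0.08 and -0.00 (untreated), 0.92, 0.75 and 0.69 (4OHT), -0.36, -0.55 and -0.53 (MG132) and 0.15, 0.04 and -0.00 (both compounds). The 4OHT arrays were highest, the MG132 arrays lowest, and the arrays with both compounds overlapped untreated ones. Med14 rose with 4OHT (0.72 ± 0.095, adjusted p = 0.00033), fell with MG132 (-0.54 ± 0.095, adjusted p = 0.0012), rose with 4OHT on top of MG132 (0.54 ± 0.095, adjusted p = 0.0029) and was lower with both than with 4OHT alone (-0.72 ± 0.095, adjusted p = 0.00016). Both other probes of Med14 called it lower with MG132 (-1.14 and -1.24) and with both compounds against 4OHT (-1.67 and -1.23). For 4OHT alone they gave 0.33 (not called) and 0.75 (called), and on top of MG132 -0.20 (not called) and 0.77 (called).

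**Figure D3:**
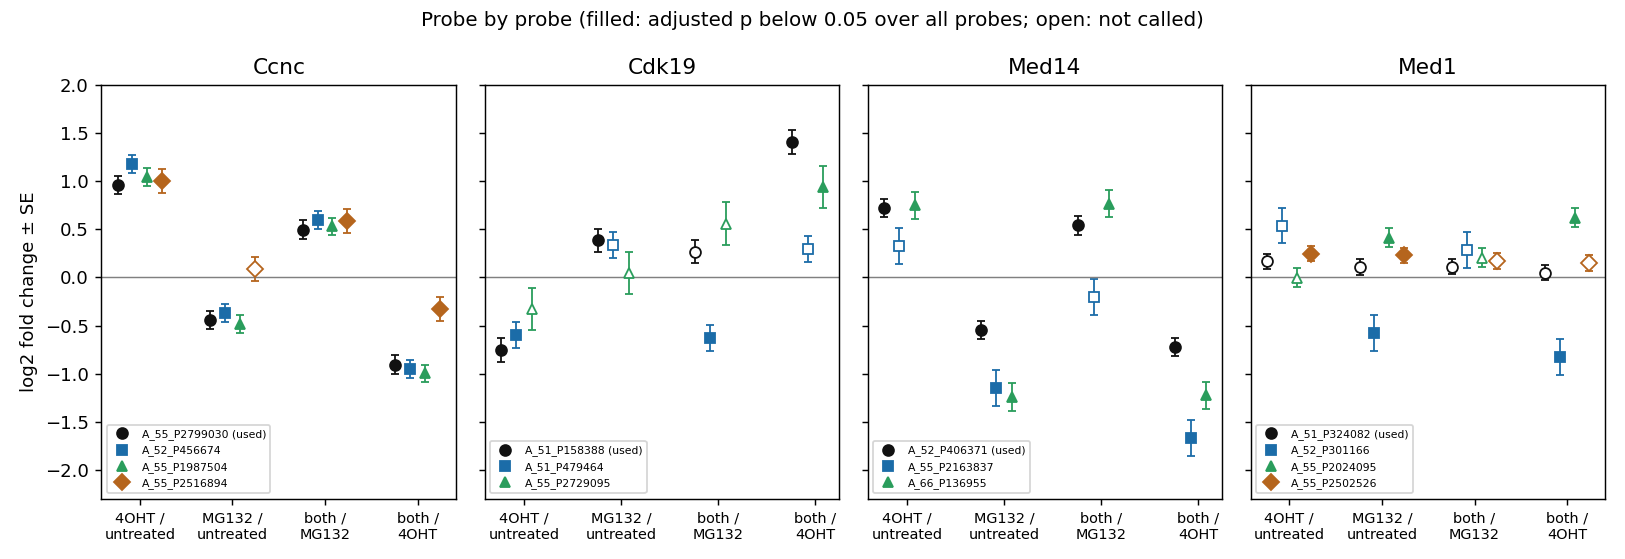
Log2 fold change ± standard error (y axis) in 4 comparisons (x axis) for each kept probe of Ccnc, Cdk19, Med14 and Med1, with the probe that stands for the gene in black and points filled where the adjusted p over all probes was below 0.05. Of the 4 Ccnc probes, 1 stands apart with MG132 and with both compounds against 4OHT, the Cdk19 probes lie on both sides of 0 with both compounds against MG132, and Med1 probes are called in both directions with MG132.

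In the middle module, which links the head to the tail and contacts the polymerase, Med9 was lower in all 4 comparisons and Med10 higher in the 3 that involve MG132. For Med9 the arrays gave 2.11, 2.21 and 2.36 without treatment, 1.10, 1.43 and 1.62 after 4OHT, 1.24, 1.36 and 1.53 after MG132 and 0.92, 0.90 and 1.01 after both. The untreated arrays were the highest, those with both compounds the lowest, and the 4OHT and MG132 arrays overlapped. Med9 fell by 0.84 ± 0.14 (adjusted p = 0.0012) with 4OHT and by 0.85 ± 0.14 (adjusted p = 0.00075) with MG132. It fell further with 4OHT on top of MG132 (-0.44 ± 0.14, adjusted p = 0.04) and with both against 4OHT alone (-0.44 ± 0.14, adjusted p = 0.022), but these calls depended on single arrays. The first was lost when untreated replicate 1 or 2 was left out, or replicate 2 of 4OHT, any 1 MG132 array or any 1 array with both, and the second without 4OHT replicate 2 or 3 or replicate 1 or 2 of both compounds, with highest adjusted p values of 0.12 and 0.16.

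Med10 read 4.11, 4.05 and 4.20 in untreated cells, 4.22, 4.43 and 4.21 with 4OHT, 4.98, 4.95 and 5.16 with MG132 and 5.34, 5.28 and 5.42 with both compounds. None of the groups overlapped. Med10, a middle subunit, rose by 0.91 ± 0.099 (adjusted p = 6.1e-05) with MG132 and by 1.06 ± 0.099 (adjusted p = 1.8e-05) with both compounds against 4OHT alone (2.08-fold). On top of MG132, 4OHT raised it by 0.31 ± 0.099 (adjusted p = 0.041), a call lost under 17 of 27 settings, among them without untreated replicate 1 or 2, MG132 replicate 1 or 2, or any 1 array with both compounds. The second Med10 probe gave 0.94, 1.06 and 0.34 in these comparisons and was called in the first 2.

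The levels of Med19 were 1.64, 1.66 and 1.61 on the untreated arrays, 1.29, 1.38 and 1.38 on the 4OHT arrays, 2.12, 1.97 and 1.95 on the MG132 arrays and 1.62, 1.59 and 1.63 on those with both. Med19, a middle subunit known to bind the repressor Rest, was lowest with 4OHT and highest with MG132, and the arrays with both compounds overlapped untreated ones. It fell with 4OHT (-0.29 ± 0.078, adjusted p = 0.02), a call lost without untreated replicate 1 or 2, and with 4OHT on top of MG132 (-0.40 ± 0.078, adjusted p = 0.0048). It rose with MG132 (0.38 ± 0.078, adjusted p = 0.0032) and with both compounds against 4OHT alone (0.26 ± 0.078, adjusted p = 0.018). Both calls were lost with median centring and with the mean over probes, with values down to 0.04 and 0.02 over the settings. The second Med19 probe gave -0.43 (called lower) with 4OHT, but -0.10 with MG132 and 0.04 with both against 4OHT, neither called.

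On the 3 arrays of each group Med21 stood at 1.96, 1.93 and 2.13 (untreated), 1.22, 1.61 and 1.76 (4OHT), 2.35, 2.26 and 2.66 (MG132) and 2.20, 2.25 and 2.40 (both compounds). Med21, which pairs with Med7 in the middle module, fell with 4OHT (-0.48 ± 0.15, adjusted p = 0.04) and was higher with both compounds than with 4OHT alone (0.76 ± 0.15, adjusted p = 0.0024), the latter at 0.40 and adjusted p = 0.31 with slide as a block. The 4OHT call was lost under 10 of 27 settings, among them without any 1 of the untreated arrays and without 4OHT replicate 1 or 2. With MG132, Med21 just missed (0.41 ± 0.15, adjusted p = 0.052), with the groups apart. Other settings called it higher there, among them quantile normalization (0.50, adjusted p = 0.022).

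Among the other middle genes, with MG132, Med4 fell by 0.51 ± 0.15 (adjusted p = 0.02) and Med31 by 0.37 ± 0.13 (adjusted p = 0.049). The Med4 call was lost without untreated replicate 2 or 3 or MG132 replicate 1 or 2, and the Med31 call under 15 of 27 settings, among them without any 1 of the 3 MG132 arrays. The second Med4 probe was called lower with MG132 too (-0.37), and higher with 4OHT on top of MG132 (0.24). Med1, the large subunit through which nuclear receptors bind Mediator, was called in no comparison. For Med1 the arrays gave 1.74, 1.74 and 1.75 without treatment, 1.94, 1.91 and 1.88 after 4OHT, 1.94, 1.84 and 1.77 after MG132 and 2.02, 1.98 and 1.89 after both. Its changes ran from 0.05 to 0.17, and with 4OHT its groups were apart without passing (adjusted p = 0.14). Its 3 other probes were called with MG132 in both directions, at -0.58, 0.41 and 0.23, and with both compounds against 4OHT at -0.83 (lower) and 0.62 (higher), with the third not called. With 4OHT alone 1 of them was called higher (0.25). Med7 and Med26, a middle subunit that recruits elongation factors, were called in no comparison, with changes from -0.24 to 0.33 between them. Med26 with MG132 (0.33 ± 0.13, adjusted p = 0.067) was called higher under other settings, among them slide as a block (0.45, adjusted p = 0.017). One other Med7 probe was called lower with MG132 (-0.35, adjusted p = 0.025) and higher with 4OHT on top of MG132 (0.42, adjusted p = 0.018).

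**Figure D4:**
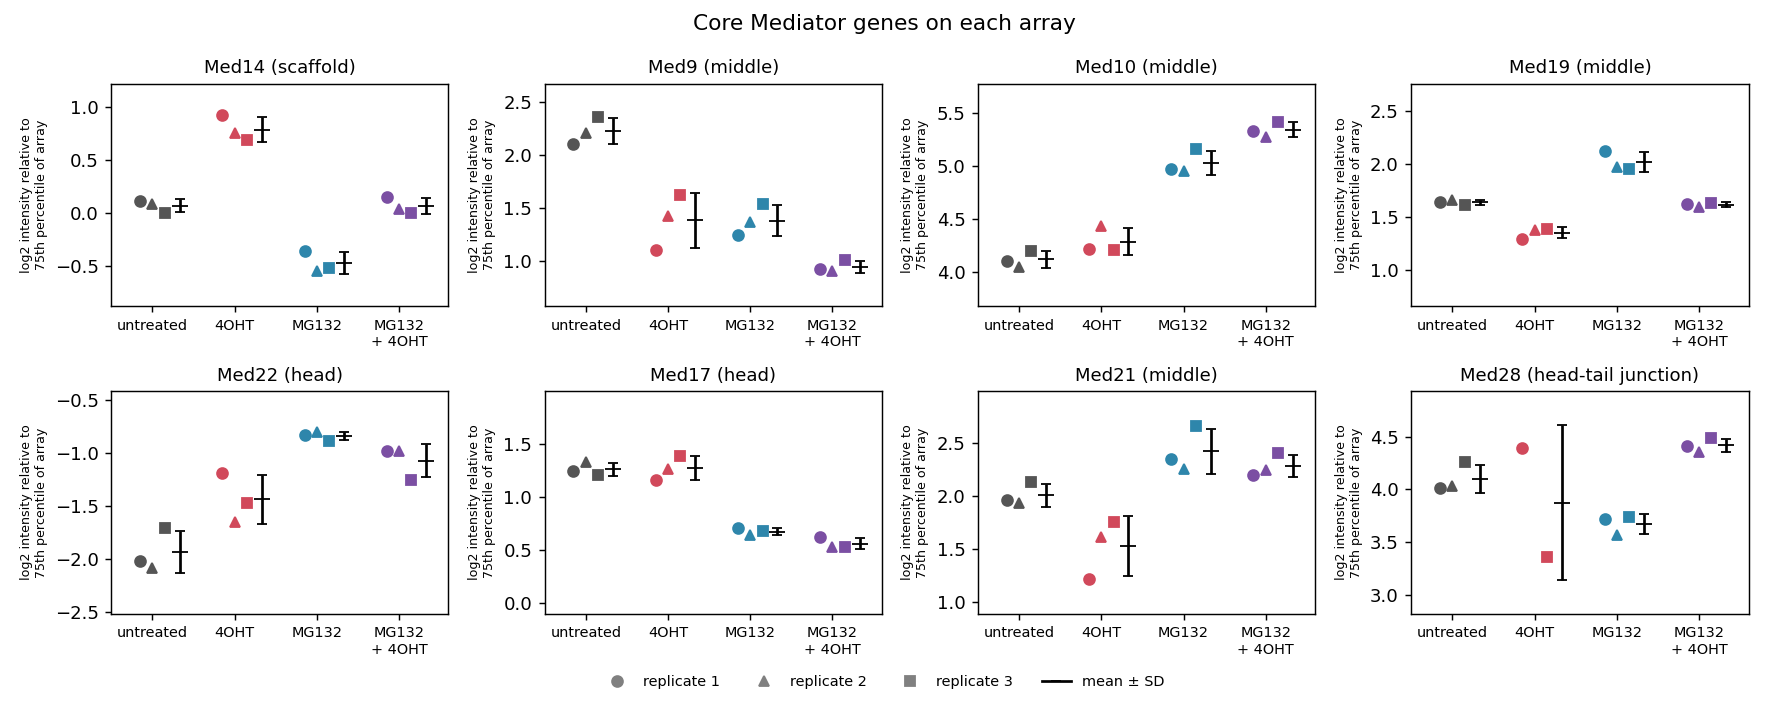
Log2 intensity relative to the 75th percentile of the array (y axis) for 8 core Mediator genes on each array, by group (x axis), with 1 symbol per replicate number and a bar for the mean ± SD. Med14 is highest with 4OHT, Med9 highest in untreated cells, Med10 highest where MG132 was given, and Med28 has 2 values with 4OHT, one of them the lowest in its panel. The Med22 means are also highest where MG132 was given, but its arrays with both compounds overlap those with 4OHT.

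In the head module, which grips the polymerase early in initiation, 5 of 6 tested genes were called with MG132, 2 higher and 3 lower, beside 24.1% higher and 19% lower of all genes. Med22 read -2.02, -2.08 and -1.71 in untreated cells, -1.19, -1.65 and -1.47 with 4OHT, -0.83, -0.81 and -0.89 with MG132 and -0.98, -0.98 and -1.25 with both compounds. All MG132 arrays lay above all untreated ones. The arrays with both compounds overlapped those with 4OHT, without a call (0.36 ± 0.14, limma adjusted p = 0.055), though some other settings called Med22 higher there. Med22 rose by 0.50 ± 0.14 (adjusted p = 0.024) with 4OHT and by 1.10 ± 0.14 (adjusted p = 0.00018) with MG132 (2.14-fold); leaving out untreated replicate 1 or 2, or replicate 1 of 4OHT, ended the 4OHT call. The levels of Med20 were 1.12, 1.10 and 1.23 on the untreated arrays, 1.15, 1.17 and 1.34 on the 4OHT arrays, 1.77, 1.69 and 1.75 on the MG132 arrays and 1.68, 1.67 and 1.86 on those with both. Med20, which forms a pair with Med18, rose with MG132 (0.59 ± 0.092, adjusted p = 6e-04) and with both against 4OHT alone (0.51 ± 0.092, adjusted p = 0.0011). With median centring both Med20 calls were lost, at 0.25 and 0.27.

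On the 3 arrays of each group Med18 stood at 0.40, 0.42 and 0.63 (untreated), -0.03, 0.34 and 0.38 (4OHT), -0.22, -0.23 and -0.08 (MG132) and -0.06, -0.05 and 0.05 (both compounds). Its partner Med20 moved the other way: Med18 fell with MG132 (-0.66 ± 0.12, adjusted p = 0.0016), with untreated and MG132 arrays apart. For Med17 the arrays gave 1.25, 1.33 and 1.21 without treatment, 1.16, 1.27 and 1.39 after 4OHT, 0.71, 0.64 and 0.68 after MG132 and 0.62, 0.53 and 0.53 after both. Med17, the head subunit that reaches the scaffold, was lower on every array with MG132 than on every array without it. It fell with MG132 (-0.59 ± 0.085, adjusted p = 0.00035) and with both compounds against 4OHT alone (-0.71 ± 0.085, adjusted p = 8.2e-05), and with 4OHT alone its change was 0.01. Med11 read 1.67, 1.67 and 1.97 in untreated cells, 1.53, 1.98 and 2.10 with 4OHT, 1.20, 1.08 and 1.28 with MG132 and 1.09, 1.32 and 1.34 with both compounds. Med11, the partner of Med22, fell with MG132 (-0.58 ± 0.16, adjusted p = 0.013, lost without untreated replicate 3) and with both compounds against 4OHT alone (-0.62 ± 0.16, adjusted p = 0.0078). Within each of these pairs MG132 moved 1 gene up and 1 down: Med20 against Med18, and Med22 against Med11. Med8, the remaining head gene, was called in no comparison, with changes from 0.02 to 0.16.

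The tail, where many activators bind, gave no limma call with 4OHT alone or on top of MG132. Of all genes, 13.9% were called higher and 14.7% lower with 4OHT, and 13.9% and 12.6% on top of MG132. At an unadjusted limma p below 0.05 the tail gave 2 and 0 of 5 genes, beside 10379 and 10421 of all 26840. With MG132, Med15 (0.34) and Med16 (0.32) rose and Med25 (-0.51) and Med24 (-0.42) fell. The levels of Med25 were 2.67, 2.79 and 2.45 on the untreated arrays, 2.30, 2.39 and 2.41 on the 4OHT arrays, 2.10, 2.23 and 2.03 on the MG132 arrays and 2.11, 2.10 and 1.94 on those with both. Med25, which is bound by ETS factors of the PEA3 group among others, fell by 0.51 ± 0.11 (adjusted p = 0.0033) with MG132 and by 0.32 ± 0.11 (adjusted p = 0.031) with both compounds against 4OHT alone, the latter lost under 12 of 26 settings. On the 3 arrays of each group Med15 stood at 2.07, 2.07 and 2.27 (untreated), 2.38, 2.32 and 2.30 (4OHT), 2.54, 2.51 and 2.37 (MG132) and 2.32, 2.44 and 2.31 (both compounds). The MG132 arrays of Med15 lay above all untreated arrays (0.34 ± 0.09, adjusted p = 0.013). Median centring put Med15 at -0.00 and Med16 at -0.02 and ended both calls; Med15 also lost its call without untreated replicate 1 or 2, Med16 without untreated replicate 2 or 3 or MG132 replicate 3, and Med24 without untreated replicate 1 or 2 or MG132 replicate 3. The second Med16 probe gave -0.25 without a call. The 2 Med16 probes stood far apart, with untreated means of 8.40 on the probe used and -2.68 on the other. Whether both measure the same transcript was not checked.

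For Med24 the arrays gave 0.84, 0.98 and 0.80 without treatment, 0.93, 0.63 and 0.64 after 4OHT, 0.55, 0.62 and 0.21 after MG132 and 0.32, 0.28 and 0.15 after both. Med24 fell with both compounds against 4OHT alone (-0.49 ± 0.13, adjusted p = 0.01), at -0.12 with slide as a block. Med23, the tail subunit through which the ERK target Elk1 recruits Mediator, was called in no comparison. Med23 read 1.58, 1.64 and 1.82 in untreated cells, 1.99, 1.80 and 1.93 with 4OHT, 1.80, 1.69 and 1.65 with MG132 and 1.67, 1.74 and 1.68 with both compounds. The untreated and 4OHT arrays overlapped by 1 array, and the 4OHT change was 0.23 ± 0.093, adjusted p = 0.1, with a 95% interval from 0.02 to 0.43. With MG132 it was 0.04 (-0.30 and adjusted p = 0.047 with median centring), and the second Med23 probe, with a standard error of 0.68, was not called.

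At the junction of head and tail, Med28 gave the only call with 4OHT, on top of MG132 (25% of 4 genes higher, beside 13.9% of all genes). The levels of Med28 were 4.02, 4.03 and 4.26 on the untreated arrays, 4.39 and 3.36 on the 4OHT arrays, 3.73, 3.57 and 3.74 on the MG132 arrays and 4.41, 4.36 and 4.48 on those with both. The spot of 4OHT replicate 2 was marked as an outlier and left out, leaving 11 values. Of the 2 remaining 4OHT values, one was the lowest of the 11 and the other lay above all untreated and MG132 values. On top of MG132, 4OHT raised Med28 (0.74 ± 0.22, adjusted p = 0.036), with groups apart; the call was lost under 14 of 27 settings, among them without any 1 of the 3 MG132 arrays or any 1 of the 3 with both compounds. The second Med28 probe gave 0.72 and adjusted p = 0.00077 there, and it was also called with 4OHT alone (0.47) and MG132 alone (-0.47). With MG132, Med29 fell by 0.36 ± 0.11 (adjusted p = 0.024) and Med30 by 0.30 ± 0.083 (adjusted p = 0.014). Med29 lost its call without untreated replicate 1 or 3 or any 1 MG132 array, and Med30 without untreated replicate 2 or MG132 replicate 2. Med27 was called in no comparison on the probe used, and 1 of its 2 other probes was called lower with both compounds against 4OHT (-0.57, adjusted p = 0.003).

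Across Mediator as a whole, the response to each compound was set beside the response to it in the presence of the other, in pairs of comparisons with no array in common. For 4OHT, the 2 sets of changes correlated over the 31 genes with Pearson's r = 0.32 and Spearman's rho = 0.24, beside r = 0.63 and rho = 0.55 over all genes. The signs were the same in 17 of 31 (54.8%), beside 70.6% of all genes, and Ccnc, Med14, Med19 and Med9 were called the same way in both, which is 50% of the 8 and 66.7% of the 6 calls, beside 50.2% and 54.2% for all genes. For MG132, r was 0.72 and rho 0.83, beside 0.74 and 0.72 over all genes. Signs were the same in 24 of 31 (77.4%), beside 78.3%, and 12 genes were called the same way in both (60% of 20 and 92.3% of 13, beside 74.6% and 64% for all genes). The 4OHT values depended on the probe for some genes. Cdk19 and Med28 changed sign between the 4OHT comparisons on the probes used. Another Cdk19 probe was called lower in both, and the second Med28 probe higher in both. The median absolute change of Mediator genes was 0.19 with 4OHT and 0.20 on top of MG132, beside 0.30 and 0.32 over all genes. For the MG132 pair it was 0.38 and 0.26, beside 0.40 and 0.48. In both MG132 comparisons the group given MG132 held arrays of slide 2 and its control none. With 4OHT alone all arrays lay on slide 1. The part of these differences in the correlations was not tested. The correlations describe genes of the same arrays, fitted together, and genes are not replicates.

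**Figure D5:**
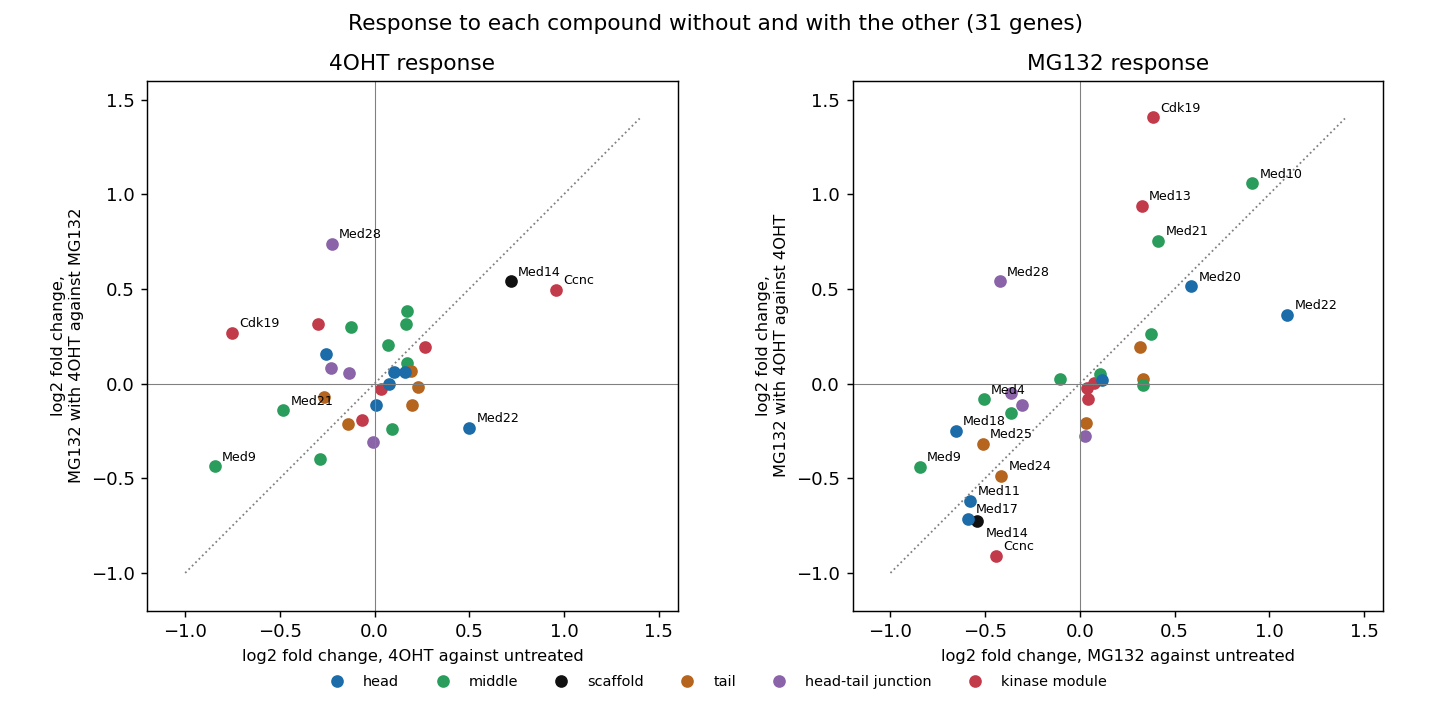
Log2 fold change of each of the 31 Mediator genes for 4OHT without (x axis) and with MG132 (y axis) on the left, and for MG132 without (x axis) and with 4OHT (y axis) on the right, coloured by module, with equal changes on the dotted line. The MG132 points follow the line more closely (r = 0.72) than the 4OHT points (r = 0.32). On the probes used, Cdk19 and Med28 lie on opposite sides of 0 on the left. Another Cdk19 probe was called lower in both 4OHT comparisons, and the second Med28 probe higher in both.

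The genes Mediator works with were read from lists of partner complexes. The lists were fixed with earlier results of these data known. Of all genes, 13.9% were higher and 14.7% lower with 4OHT, and 24.1% and 19% with MG132. On top of MG132 the shares were 13.9% and 12.6%, and against 4OHT alone 29.4% and 20.9%. For the difference between the 4OHT responses they were 2.94% and 3.61%. These shares stand beside the counts of every list below, and several counts lay near them. The genes said to lead a list are called ones, and some genes that were not called had larger changes. Such values were 1.95 with 4OHT and -1.15 with both compounds against 4OHT among TFIID and the other initiation factors. For polymerase subunits they were -1.23 with MG132 and 1.58 with 4OHT on top of MG132. Of 11 tested RNA polymerase II subunits, limma called none with 4OHT alone or on top of MG132, with 0 and 2 at an unadjusted p below 0.05. Over all 26840 genes, 10379 and 10421 had such an unadjusted p. With MG132, 5 of these 11 were lower and none higher, led by Polr2f (-0.87 ± 0.11, adjusted p = 0.00017) and Polr2l (-0.86), and with both compounds against 4OHT 4 were lower, led by Polr2f (-0.96) and Polr2e (-0.67). TFIIH, the initiation factor with the kinase Cdk7, had 5 of 10 genes lower and 1 higher with MG132, among them Gtf2h4 (-0.88) and Cdk7 (-0.86 ± 0.11, adjusted p = 0.00016). With 4OHT 3 TFIIH genes were higher and none lower, among them Cdk7 (0.59) and the helicase gene Ercc3 (0.43). On top of MG132 2 were higher and 1 lower, with Cdk7 at 0.52, and with both compounds against 4OHT 1 was higher and 6 lower, with Cdk7 at -0.93.

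Among 22 genes of TFIID and the other general initiation factors, 6 were higher and 2 lower with 4OHT, led by Gtf2e2 (0.89) and Taf4b (0.59), and 3 were higher and 4 lower with MG132, led by Taf10 (-0.59) and Taf8 (0.59). On top of MG132, 4OHT gave 7 higher and 3 lower, with Taf4b at 0.68 and Taf6 at -0.52, and both compounds against 4OHT gave 5 higher and 6 lower, with Taf10 at -0.77 and Gtf2e2 at -0.64. Among 22 pause release and elongation factors, 4 were higher and 5 lower with 4OHT, with Ell2 up (1.37 ± 0.18, adjusted p = 0.00029) and its relative Ell3 down (-1.71 ± 0.17, adjusted p = 5.4e-05). For MG132 the counts were 2 and 6 (Eaf1 at 0.65 and Eaf2 at -0.59), for 4OHT on top of MG132 3 and 3 (Ell3 at -1.42 and Eaf1 at 1.03), and for both against 4OHT 6 and 6 (Larp7 and Mllt3, both at 1.04). The last 2 counts are 27.3% each, beside 29.4% and 20.9% of all genes. The difference between the 4OHT responses was called in this list for Ell alone (-0.51).

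Cohesin, the ring complex that works with Mediator at enhancers, had 4 of 10 genes higher and 1 lower with 4OHT. These are 40% and 10%, beside 13.9% and 14.7% of all genes. The release factor Wapl (0.76 ± 0.15, adjusted p = 0.0031) and Stag2 (0.75) led the cohesin calls. With MG132 3 were higher and 1 lower, with Stag1 at 0.67 and the ring subunit Rad21 at -0.96. On top of MG132 2 were higher and none lower, Wapl at 0.61 and Stag2 at 0.41, and against 4OHT alone 3 were higher and 3 lower, with Rad21 at -1.05 and the loader Nipbl at 0.85. Of 10 partners and regulators of Mediator, 1 was higher and 3 lower with 4OHT, including the pluripotency factor Esrrb (-1.01) and the repressor Rest (-0.93). With MG132 3 were higher and 2 lower (30% and 20%, beside 24.1% and 19% of all genes). Fbxw7, the ubiquitin ligase subunit that recognises Med13, rose by 1.57 ± 0.13 (2.96-fold), and Ehmt2, a histone methyltransferase recruited through Med12, fell by 0.59. On top of MG132 3 were lower and none higher, with Esrrb at -0.84 and the serum response factor Srf at -0.64, and against 4OHT alone 3 were higher and 1 lower, with Fbxw7 at 1.19 and Ehmt2 at -1.84. Ehmt2 was the partner whose 4OHT responses differed with and without MG132 (-1.25 ± 0.12, adjusted p = 0.00048).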

How the data were processed

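The 12 RNA samples were each run with Cy3 on an Agilent mouse array, per the labels' protocols. For each array the authors deposited the scanner output, with the processed intensity of Agilent Feature Extraction 11.0.1.1 after background subtraction, per the file headers, and a series-wide table that held the same intensity (largest difference 0). Of 62976 spots, 3671 control spots were left out, as were spots marked as outliers. Spots of one probe were averaged to 56605 probes, and 32994 of these (58.3%) were given a symbol by matching accessions to RefSeq (GRCm38.p6). The log2 intensity minus each array's 75th percentile (309.4 to 484.9) was used. A probe entered when every array of some group had it well above background, and the probe of highest mean stood for its gene, which gave 26840 genes, 15988 with a RefSeq symbol and the others under the accession in the files.

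One limma 3.58.1 model (R 4.3.3) took all 12 arrays, with a mean for each group (8 residual and 2.08 prior degrees of freedom), and p-values were adjusted by Benjamini-Hochberg. They reflect only how these samples vary, and the number of arrays limits their precision. An exact test on 3 against 3 arrays cannot go below 0.1, so none was run on single genes. The fit was tested on simulated data. The members, gene lists and tests were chosen with earlier results of these data known. Named genes were, per comparison, the 6 called members with the largest rise and the 6 with the largest fall, the kinase module, Med14, Med1 and Med23, and up to 2 called genes of each partner list. The alternatives were other background corrections, scalings, filters, probe summaries, weights and variance priors, slide and replicate blocks and single arrays left out; leaving out every replicate 3 and the fit by probe were added after the data were seen. Normexp ran on median signals. Of the 4 comparisons of 2 groups, same-numbered arrays deviated together in all 3 pairs (correlation above 0.1) for both compounds against MG132 and not in the other 3. In those 3, the arrays numbered 3 still correlated, at 0.23, 0.35 and 0.27, so some pairing by number was left there. Figures were drawn with Python 3.11.15 and matplotlib 3.10.9.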

Additional observations from a re-analysis of the deposited data

Results flagged for a closer look

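The 4OHT response of Cdk19 differed between cells with and without MG132 by 1.02 on the log2 scale (SE 0.17, limma adjusted p = 0.0074, a test of the difference itself). The 4OHT arrays were lower than the untreated arrays by 0.75, on 3 of 3 arrays, whereas the arrays with both compounds were higher than those with MG132 alone by 0.27, which was not called. Over the 26 settings tried, the difference ran from 0.63 to 1.17. It missed the threshold with the mean over the 3 probes (0.63, adjusted p = 0.085) and with replicate and slide blocks together (0.99, adjusted p = 0.061), and the 2 other probes taken singly gave -0.04 and 0.89 without a call. Groups of 3 arrays are too small for a test of single outlying arrays.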

How the results depend on the processing

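For 4OHT against untreated cells the count of called Mediator genes went from 8 to 4 with only the arrays compared and to 4 within slide 1, and ran from 4 to 9 with 1 array left out. Over all 26840 genes the calls went from 7667 to 5073 and 6348 there, and ran from 5764 to 8579. For MG132 against untreated cells the Mediator count went from 20 to 13 with no filter, and ran from 13 to 23. Over all genes the calls went from 11565 to 11176, out of 45616 tested with no filter, and ran from 9532 to 13062. For both compounds against MG132 the Mediator count went from 6 to 3 with no filter, 17 with array weights, 1 with slide as a block and 1 with replicate and slide blocks together. With 1 array left out it ran from 3 to 7. Over all genes the calls went from 7109 to 4929 (of 45616), 14951, 2988 and 2312 in the same order, and ran from 4621 to 8826. Slide 2 held 1 MG132 array, so no count is given within it. For both against 4OHT the Mediator count went from 13 to 6 with slide as a block and 7 with replicate and slide blocks, and ran from 10 to 16. Over all genes the calls went from 13481 to 5335 and 4833 there, and ran from 11466 to 14340. For the difference between the 4OHT responses the Mediator count went from 1 to 3 with normexp, 2 with quantile normalization, 3 with probes above background on all arrays, 6 with array weights, 2 with an intensity trend, 2 with the replicate block, 0 with replicate and slide blocks (limma, 5 at an unadjusted p below 0.05) and 2 without every replicate 3, and ran from 1 to 3. Over all genes the calls went from 1760 to 1850, 1891, 1809 (of 20324), 6049, 2023, 2566, 804 and 2910 in the same order, and ran from 1038 to 2530. Under the other settings each Mediator count stayed within 1.5 times its value. The replicate block added Med31 for both compounds against MG132, given in the report. In the other 3 comparisons of 2 groups it gave 9, 22 and 13 calls, beside 8830, 12665 and 14484 among all genes. The genes added were Med25 with 4OHT (-0.27), and Med21 (0.41) and Med26 (0.33) with MG132. Median centring reversed 5 values for MG132 against untreated cells: Cdk8 (-0.26), Med13 (-0.01), Med15 (-0.00), Med16 (-0.02) and Med23 (-0.30). The causes were not tested, beyond the smaller number of arrays or the larger number of genes that some settings hold by construction. No slide held both 4OHT and both-compound arrays, so no within-slide value exists there. Dim probes, such as those of Med12l, Med22 and Med13, limit what can be said of their genes.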
